A study of Vitis vinifera with 165 samples.

Results

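The gene models described here are 150 transcripts of the grape berry that were higher in hard green fruit and dropped before or at the onset of ripening. Averaged over 3 seasons on the log2 scale, they then changed by less than 1 up to day 21 after it. Their mean level in green berries ran from 3.35 to 343 RPKM, with a median of 10.5. They were selected on their measured values, from 20460 gene models that reached an RPKM of 1 in at least 3 libraries and out of 29971 in the deposited table. RPKM counts reads relative to gene model length and library size, and every level below is an RPKM or log2(RPKM + 1). For each season, a first step was computed as the mean of days -9 to 0 minus the mean of days -14 and earlier, and a second step as day 21 minus the mean of days -9 to 0, on the log2 scale and averaged over thinning levels. The members are the 150 gene models with the most negative first step, averaged over 3 seasons, among the 17134 whose second step lay within 1 of 0. All 150 therefore passed the filter on low values. Both steps are descriptions of the choice and were not tested.

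The berries came from Pinot noir, a red variety of Vitis vinifera, clone FPS 23 grafted on Freedom rootstock and grown near Modesto in 2012, 2013 and 2014. Clusters were removed to thin the crop by 50% or 75%, so that all 165 libraries came from thinned vines; the unthinned control that the labels describe was not analysed here. Each of 55 groups, a season, thinning level and day, held 3 libraries from seedless pericarp, the skin and flesh, with 60 berries pooled from 6 clusters a sample. Blocks of 8 vines stood in 9 rows, 3 rows per treatment, and the labels do not tie a replicate number to a row, so the p-values below rest on the spread among pooled samples, which may be partly technical. Day 0 is veraison as the labels give it, and sugar in g per 100 ml was also taken from the labels of each sample.

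Veraison is the point at which a grape berry softens, begins to load sugar and, in red varieties, to colour. Before it the berry is firm, green and acidic, and its cells divide and then expand. After a lag in growth the berry turns to ripening, and transcripts of the green phase, among which those of photosynthesis, cell division and tannin synthesis are well known, give way to transcripts of sugar uptake, softening and pigment synthesis. The files and the reference table pair no member with a gene name or product, since 0 of its entries carry this kind of identifier. Members are therefore given by identifier only, no role is stated for any of them, and the pericarp label could not be checked against marker genes.

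Across gene models the median Pearson r of replicate libraries was 0.987, no libraries held identical values, and total RPKM per library ran from 876732 to 1405120. Because RPKM holds no read counts, sequencing depth is unknown. Among the least similar replicate pairs were those with replicate 2 of 75% thinning on day 0 of 2012 (r of 0.915 and 0.917) and a pair at 50% thinning on day -18 of 2012 (0.925). Without replicate 2 of every group 131 of the 150 members were chosen again, and without replicates 1 and 2 of 50% thinning on day -18 of 2012 the number was 141.

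The mean level of the 150 members, which were chosen for such a drop, fell between green berries and day 0 in each season. A first step of -1 or lower was reached by 149 members in 2012, 143 in 2013 and 111 in 2014. In 2012 the mean log2 level of the 150 per library was 3.88 to 4.56 on day -28 and 3.63 to 4.42 on day -18. By day -9 it lay between 1.59 and 2.10, and on day 0 between 1.21 and 1.38. The libraries of days -28 and -18 did not overlap with any later library of that season. In 2013 the level was 3.44 to 3.94 on day -14, 1.89 to 2.76 on day -7 and 1.30 to 1.44 on day 0, so day -7 stood between both and touched neither. In 2014 the level was still 3.67 to 3.89 on day -14 and 3.14 to 3.61 on day -6, and had reached 1.38 to 1.60 on day 0. In whole-pericarp RNA, fewer cells of a type and less RNA per cell cannot be told apart.

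**Figure D1:**
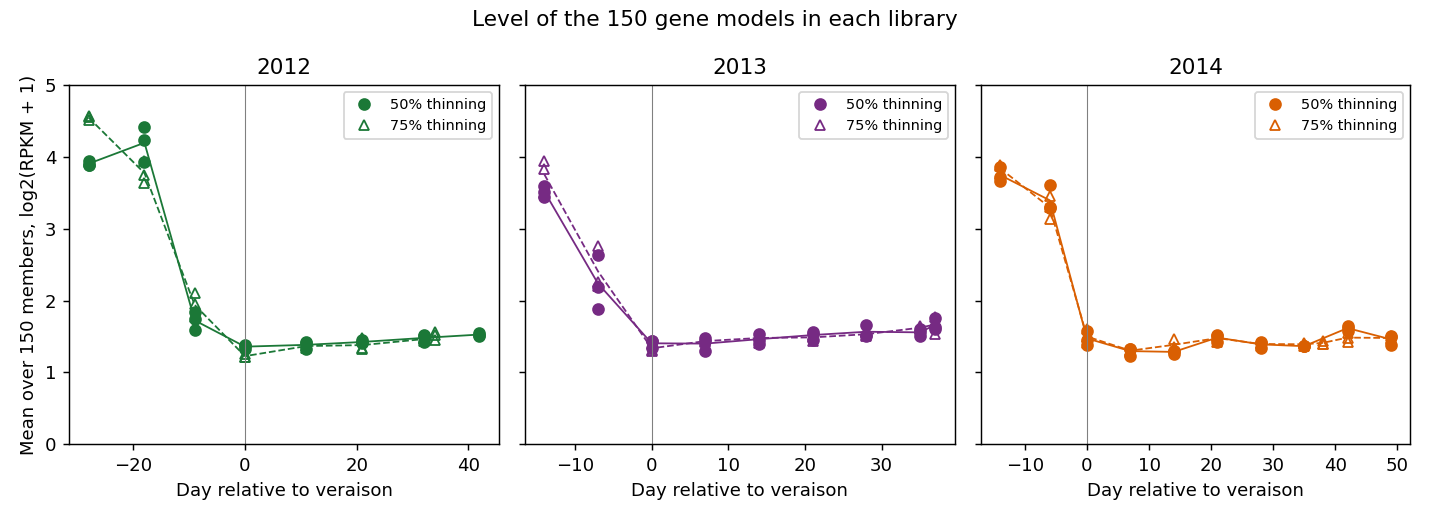
Mean log2(RPKM + 1) over the 150 members in each library (vertical axis) against the day relative to veraison (horizontal axis), with 1 panel per season; filled circles and solid lines are 50% thinning, open triangles and broken lines 75%, and lines join group means. In 2012 the level is down to 1.83 on average by day -9, whereas in 2014 it is still 3.35 on day -6 and 1.49 on day 0.

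Expressed as RPKM of the median member, the level went in 2012 from 13.3 on day -28 and 11.2 on day -18 to 1.31 on day -9 and 0.516 on day 0. In 2013 the median member stood at 7.83 on day -14, 2.54 on day -7 and 0.637 on day 0. In 2014 it stood at 9.69 on day -14, 6.56 on day -6 and 0.844 on day 0. No member averaged under 1 RPKM on the green days of 2012 and 2013, and 3 did on day -14 of 2014. On day 0 the number under 1 RPKM was 92 in 2012, 87 in 2013 and 80 in 2014.

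The interval that held the drop differed between seasons. Between days -18 and -9 of 2012 the median member changed by -2.13 on the log2 scale, and 146 members were lower by at least 1. From day -9 to day 0 the median change was only -0.52. In 2013 the drop was divided between both intervals, with a median of -1.32 from day -14 to -7 and of -0.92 from day -7 to 0. In 2014 the median member changed by -0.37 from day -14 to -6 and by -1.88 from day -6 to 0, where 138 members were lower by at least 1. The median over all 20460 gene models lay between -0.26 and 0.01 in these intervals. In the interval that followed day 0 the members' medians were -0.02 in 2012, -0.03 in 2013 and -0.17 in 2014.

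Set against sugar, the drop began where sugar began to accumulate in 2012 and 2013. All libraries of days -14 and earlier held at most 1.41 g per 100 ml and had a member mean of at least 3.44. On day -9 of 2012 sugar was 4.21 to 6.11 g per 100 ml, and on day -7 of 2013 it was 2.98 to 5.04, and these are the libraries with intermediate member means. On day 0 sugar was 10.23 to 13.43 in 2012 and 9.25 to 11.12 in 2013. Day 0 of 2014 stood apart, since its label gives 1.40 to 2.15 g per 100 ml, overlapping the 1.48 to 2.01 of day -6, while the member mean had dropped from 3.35 ± 0.16 to 1.49 ± 0.09 (SD, n = 6). A ripening transcript outside the set, VIT_11s0016g04920, picked as a reference after its values were seen, averaged 294 ± 319 RPKM on day -6 of 2014 and 2008 ± 627 on day 0 (SD, n = 6). On day 0 it averaged 1764 ± 860 in 2013 and 6886 ± 903 in 2012. The member mean and this reference transcript on day 0 of 2014 thus lay near their values on day 0 of 2013, and the labelled sugar did not. Against day 0 of 2012 the reference transcript was far lower in 2014, so day 0 was not alike across seasons for it. The low member mean is partly built in, since the members were chosen for low values on days that include day 0 of 2014. Without that day, 85 members were chosen again. Neither the members nor a reference picked after the fact is an independent check. Whether the sugar label or the berries differ was not tested.

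**Figure D2:**
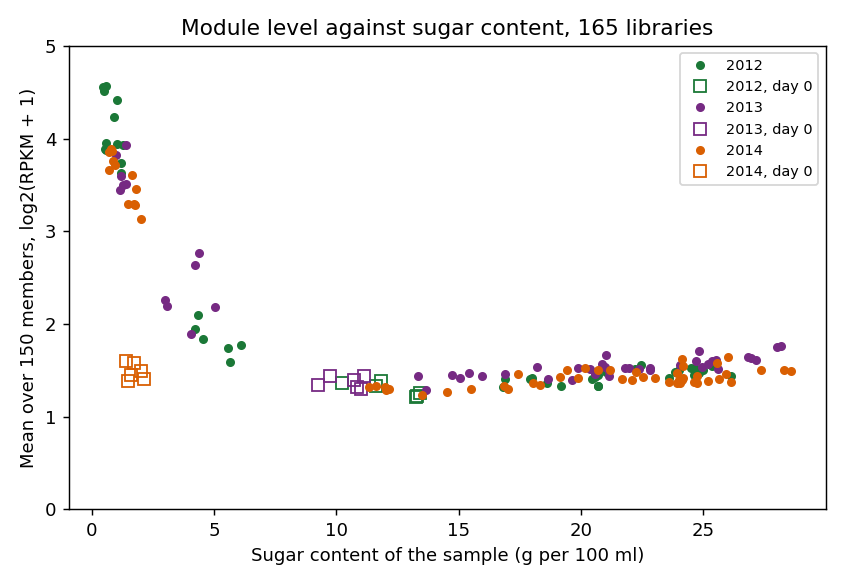
Mean log2(RPKM + 1) over the 150 members (vertical axis) against sugar content in g per 100 ml (horizontal axis) for each of 165 libraries, coloured by season, with open squares for day 0. The 6 libraries of day 0 of 2014 lie at 1.40 to 2.15 g per 100 ml with a member mean of 1.38 to 1.60, below all other libraries of such low sugar.

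The first step of the members, as chosen, ran from -2.997 to -1.55 with a median of -1.83, against a median of -0.15 over all gene models tested. By season its median was -2.48 in 2012, -1.83 in 2013 and -1.34 in 2014, and 103 members had a first step of -1 or lower in each season. The 2012 value was the most negative of the 3 for 134 members. The mean of days -9 to 0 is made from days -9 and 0 in 2012, -7 and 0 in 2013 and -6 and 0 in 2014, and on day -6 of 2014 most of the drop had not yet taken place. For the same reason the second step was larger in 2014, with a median of -1.07 against -0.23 in 2012 and -0.43 in 2013. In 2014 alone 82 members lay outside the limit on the second step. At the end of the ranking VIT_00s1543g00010 was inside with a first step of -1.546 and VIT_08s0040g01370 outside with -1.542. At the limit on the second step VIT_00s2814g00010 was inside with -0.997 and VIT_02s0025g02080 outside with -1.002. A further 364 gene models had a first step as negative as that of the last member but went on falling past the limit.

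Genes picked in some seasons could be tested in a season that did not pick them. The rule was applied to each pair of seasons, and the first step of the 150 gene models it chose was tested in the season left out with limma, at a Benjamini-Hochberg adjusted p below 0.05 and a log2 change of -1 or lower. In 2012, 144 of the 150 chosen in 2013 and 2014 were lower, with a median of -2.19, where 13.5% of all gene models were lower by the same call. In 2013, 122 of the 150 chosen in 2012 and 2014 were lower, with a median of -1.505, against 7.5% of all gene models. In 2014, 104 of the 150 chosen in 2012 and 2013 were lower, with a median of -1.29, against 4.61%. With day 0 of 2014 alone in place of the mean of days -6 and 0 the 2014 count was 133, and with day -6 alone it was 14. No share of all gene models is given for either single day, so these counts cannot be set against a background. Of the chosen gene models, 101, 114 and 90 in the order of these seasons were among the 150 members. The flat course afterwards carried over less evenly, since 139 of those tested in 2012 and 131 in 2013 kept a second step within 1 of 0, but 43 in 2014.

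**Figure D3:**
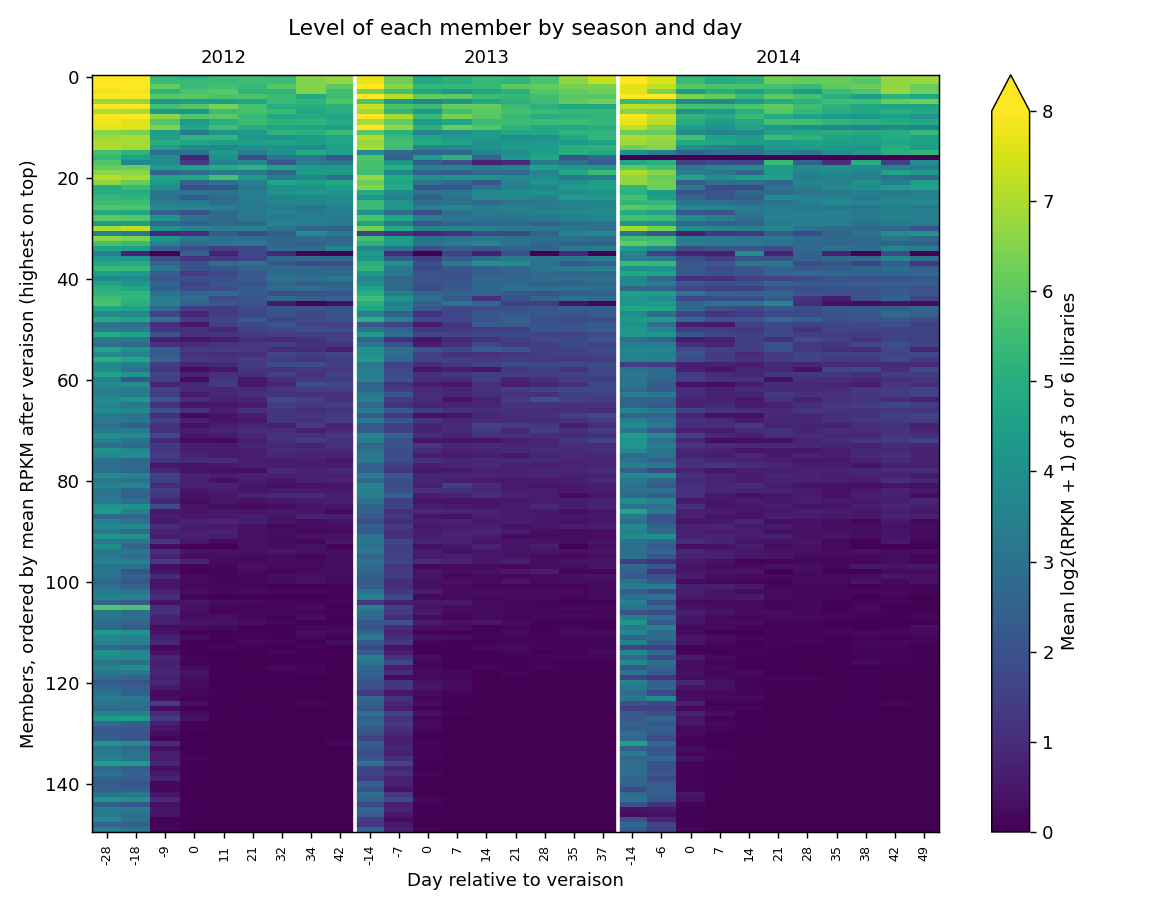
Mean log2(RPKM + 1) of each of the 150 members (rows, ordered by mean RPKM after veraison) on each sampled day (columns, in days relative to veraison) of 2012, 2013 and 2014, divided by white lines; the colour scale is capped at 8. The bright columns end at day -18 in 2012, at day -14 in 2013 and at day -6 in 2014, and the lower rows are dark afterwards.

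The steepest member was VIT_05s0102g00190. In 2012 its lowest, median and highest values over 6 libraries were 39.6, 57.8 and 79.0 RPKM on day -28, and 16.1, 50.9 and 190 on day -18. On day -9 they were 0.565, 1.20 and 2.60, and on day 0 they were 0, 0.237 and 0.576. Its green level differed by season, with a median of 8.70 in 2013 and one of 6.77 in 2014, both on day -14. No library from day 0 on in any season exceeded 0.758 RPKM, so green and later libraries did not overlap.

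VIT_05s0062g01260 had the second most negative first step, at -2.85. Its values on day -14 of 2014 were 12.5, 21.8 and 35.6 RPKM, and on day -6 they were 3.56, 6.49 and 11.3. On day 0 of 2014 it was listed at 0 in 4 of 6 libraries and reached 0.191 in the highest. VIT_05s0020g03040, at -2.78, went from 15.8, 16.8 and 23.1 RPKM on day -28 of 2012 to 0.0579, 0.345 and 0.939 on day -9. VIT_00s0211g00170, at -2.70, went from 14.9, 22.4 and 31.6 on day -28 of 2012 to 0.452, 0.755 and 1.96 on day -9. On day 0 of 2012 it was listed at 0 in 5 of 6 libraries. VIT_08s0007g06670, at -2.69, and VIT_17s0000g03890, at -2.55, followed the same course, with day -28 medians of 17.1 and 13.6 RPKM and day 0 medians of 0.0519 and 0.0791 in 2012. Low values went on falling after day 0 in some libraries, as in VIT_17s0000g03890, whose median was 0.515 RPKM on day 0 of 2014 and 0.142 on day 7.

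Other members of the 12 with the most negative first steps kept a measurable level. VIT_04s0008g01590, at -2.76, had 111, 126 and 162 RPKM on day -14 of 2014, 70.9, 96.0 and 108 on day -6 and 8.71, 9.99 and 12.9 on day 0. VIT_14s0083g00110, at -2.38, averaged 122 ± 44.3 RPKM over the 24 green libraries and 7.76 ± 2.66 over 87 libraries of day 7 and later without day 21 (SD). VIT_12s0059g01830, at -2.54, varied widely while the berries were green, from 4.27 to 82.4 RPKM on day -28 of 2012, and averaged 0.500 ± 0.261 in those 87 later libraries.

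The most abundant members stayed well above 0 after the drop and went on moving. VIT_13s0019g02930 averaged 343 ± 146 RPKM in the 24 green libraries and 72.6 ± 46.2 in the 87 later ones (SD). VIT_13s0019g03000 averaged 333 ± 151 and 76.9 ± 50.9. In 2012 the latter read 213, 304 and 823 RPKM on day -18 and 25.1, 36.8 and 60.1 on day -9, with no overlap between these days. Its median was 23.4 RPKM on day 0 of 2013 and 173 on day 37, near the 205 of day -14. Its late change, defined below, was 0.88, under the size needed for a call. VIT_03s0017g01210 had 247, 316 and 423 RPKM on day -18 of 2012, 48.9, 60.2 and 69.6 on day -9 and 46.7, 63.9 and 71.5 on day 0. In 2014 its values were 274, 324 and 373 on day -6 and 70.4, 80.1 and 97.9 on day 0, and its median went down to 27.9 by day 49. VIT_01s0127g00540, VIT_17s0000g01110 and VIT_18s0001g15410 averaged 271, 256 and 255 RPKM in green berries and 36.9, 62.9 and 42.6 in the later libraries.

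The name "switched off" thus held for part of the set. Over the 87 libraries of day 7 and later without day 21, which the choice of members did not use, 78 members averaged under 1 RPKM, 47 averaged 1 to 10 and 25 averaged above 10. In 51 members every one of these libraries was under 1 RPKM, and 1 member was listed at 0 in all of them. The 78 members under 1 RPKM had a median green level of 7.33 RPKM, and the other 72 one of 29.0. With 1 added to the RPKM the first steps of both were alike in size, with medians of -1.86 and -1.81. With 0.1 added they were not, with medians of -3.16 and -2.10. The limit on the second step bears on this division, because adding 1 to the RPKM compresses changes below 1 RPKM. With 0.1 added in place of 1, 70 of the 78 had a second step below -1, with a median of -1.68 over the 78, and 52 of all 150 were chosen again.

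Later ripening was measured in libraries that did not choose the members, as days 28 and later minus days 7 to 14. In this comparison 10 of the 150 members changed by at least 1 on the log2 scale at an adjusted p below 0.05 in limma, 7 upward and 3 downward, which is 6.67%. Among all gene models 7.96% were called in either direction, so the members' share in both directions together was near the background. By direction, 4.67% of members and 2.36% of all gene models were higher, and 2% and 5.61% lower. The median late change was 0.00 over members and 0.03 over all gene models, and 56.7% of members against 43.5% of all gene models lay within 0.25 of 0. All 10 called members were among the 72 that averaged at least 1 RPKM afterwards. The 51 members under 1 RPKM in every one of the 87 later libraries could not change by 1 on this scale. The share called therefore says nothing about these 51, and their closeness to 0 is limited by the floor. With 0.1 added to the RPKM 25 members were called, 17 upward, against 15.8% of all gene models.

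**Figure D4:**
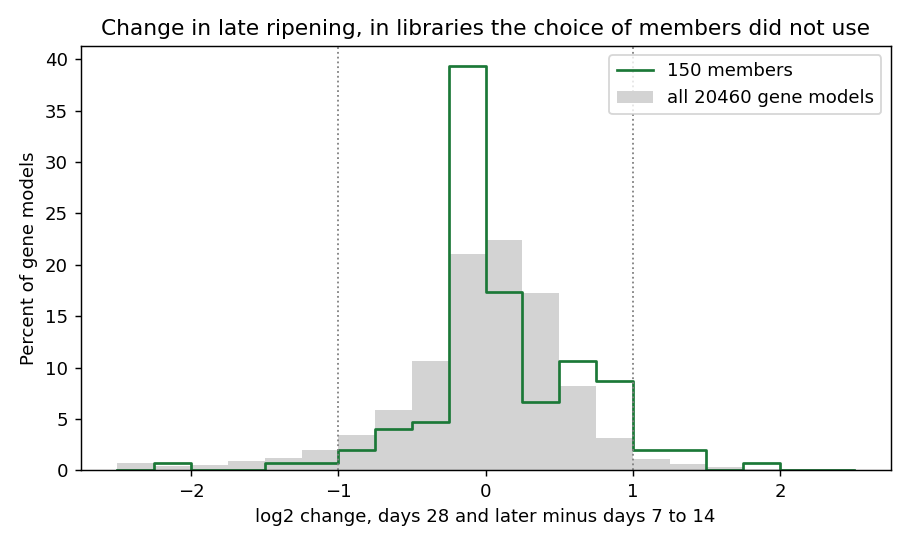
Percent of gene models (vertical axis) by log2 change from days 7 to 14 to days 28 and later (horizontal axis, bins of 0.25, values beyond the ends put in the last bins), for all 20460 gene models tested (grey bars) and the 150 members (green line); dotted lines mark a change of 1. The members peak just below 0 and 10 of them lie beyond the dotted lines.

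Among the members that rose again, VIT_00s0323g00060 moved most. In 2014 its lowest, median and highest values were 31.2, 82.9 and 176 RPKM on day -6, 1.28, 2.45 and 3.33 on day 7 and 19.2, 23.3 and 27.8 on day 49. In 2013 they were 2.72, 3.41 and 5.16 on day 7 and 17.0, 22.0 and 30.3 on day 37. The late libraries lay above all libraries of day 7, and its late change was 1.93 ± 0.11 (SE, limma adjusted p 1.85e-32). VIT_04s0008g00610 read 9.56, 12.5 and 14.5 RPKM on day 7 of 2014 and 65.9, 71.6 and 91.2 on day 49. On day 49 it was above the 36.1, 41.1 and 51.1 of green berries on day -14 of that season, and its late change was 1.42 ± 0.06 (SE, limma adjusted p 5.73e-45). VIT_18s0001g12110 rose by 1.43 ± 0.15 (SE, limma adjusted p 3.14e-15), from 3.14, 7.54 and 11.8 RPKM on day 11 of 2012 to 19.8, 23.2 and 35.4 on day 32. VIT_16s0050g01150 and VIT_05s0029g00240 rose by 1.27 and 1.13.

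The 3 members that fell further were VIT_19s0085g00740, VIT_08s0007g04800 and VIT_18s0001g15410. VIT_19s0085g00740 read 3.12, 7.84 and 18.4 RPKM on day 7 of 2013, 0.724, 1.76 and 2.78 on day 28 and 0, 0.0534 and 0.236 on day 37. Its spread was wide between days 7 and 21 of 2014, when single libraries reached 30.5, 76.4 and 39.5, but no library from day 28 on exceeded 2.78, and the late change was -2.14 ± 0.19 (SE, limma adjusted p 3.87e-20). VIT_08s0007g04800 read 36.8, 44.3 and 71.5 on day 11 of 2012 and 7.06, 9.37 and 10.9 on day 32, with a late change of -1.31 ± 0.08 (SE, limma adjusted p 3.27e-29). VIT_18s0001g15410 changed by -1.08 ± 0.06 (SE, limma adjusted p 1.78e-31).

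**Figure D5:**
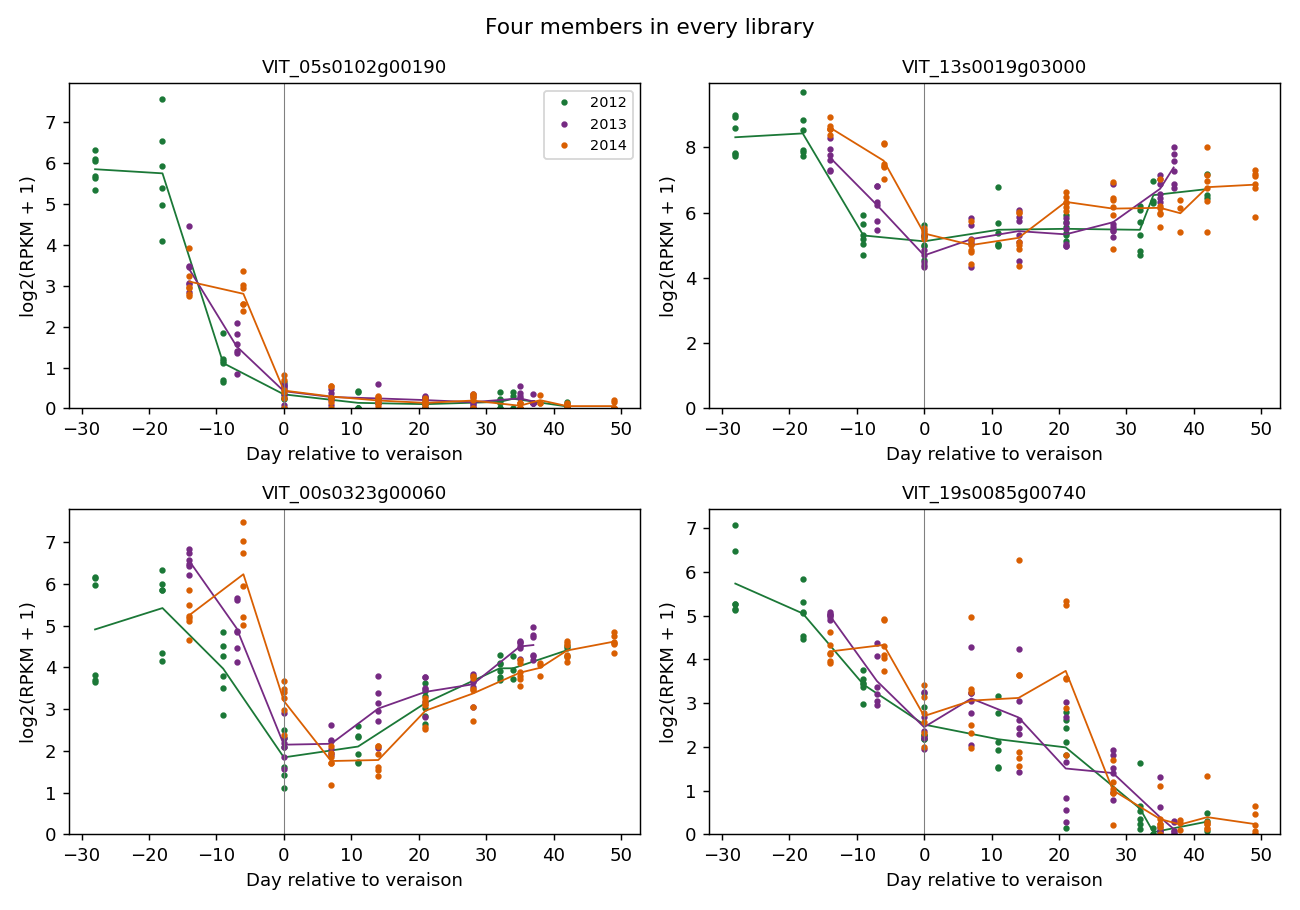
Values of 4 members in every library as log2(RPKM + 1) (vertical axis) against the day relative to veraison (horizontal axis); points are libraries, lines the mean of each day, and colours the seasons. VIT_05s0102g00190 stays below 0.758 RPKM from day 0, VIT_13s0019g03000 stops at 19.1 to 47.7 RPKM on day 0 and is higher again in the last samples of each season, VIT_00s0323g00060 rises again and VIT_19s0085g00740 falls further after day 21.

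Between days 7 and 14 of 2013 and 2014, 1 member was called by the same rule, VIT_01s0011g03360, which was higher on day 14 by 1.05 ± 0.12 (SE, limma adjusted p 1.44e-12), against 2.6% of all gene models; without replicate 1 of every group the count was 0.

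Few members were called between the seasons 2013 and 2014 after veraison, where a call needed a difference of 1 on the log2 scale. The 51 members under 1 RPKM in every one of the 87 later libraries could not reach that difference on any day. The season counts on day 7 and on the later days below therefore say nothing about these 51. On day 7, 6 members (4%) were lower in 2014 and 0 higher. Of all gene models 3.02% were lower and 3.64% were called in either direction, so the members' share was near the background. An unadjusted p below 0.05 in limma was found for 22% of members and 32.6% of all gene models. VIT_01s0127g00560 read 52.2, 69.2 and 89.0 RPKM on day 7 of 2013 and 13.1, 16.6 and 20.2 in 2014, with no overlap and a difference of -2.05 ± 0.19 (SE, limma adjusted p 9.19e-18). Its neighbour in the numbering, VIT_01s0127g00540, read 59.3, 78.1 and 97.7 in 2013 and 24.0, 29.6 and 31.1 in 2014, a difference of -1.42 ± 0.16 (SE, limma adjusted p 7.19e-13). VIT_07s0104g01730 read 31.2, 49.0 and 61.1 and then 13.9, 18.9 and 27.2, a difference of -1.25 ± 0.16 (SE, limma adjusted p 1.84e-10). VIT_13s0019g01040 was lower by 1.14 in size, a call that was lost without replicate 2 of every group. VIT_00s0848g00030 was listed at 0 in every library of 2014, and on day 7 of 2013 ran from 0 to 194 RPKM with a median of 49.4, so no fold is given. Whether these zeros are failed estimates or absence cannot be told from RPKM, and this gene model is 1 of the 6.

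On days 28 and 35, 5 members were lower in 2014 than in 2013 and 0 were higher. Of all gene models 2.09% were lower and 2.13% were called in either direction. VIT_00s0848g00030, listed at 0 throughout 2014, is again among them. VIT_00s2814g00010 read 4.99, 7.40 and 9.79 RPKM on day 35 of 2013 and 0, 0.429 and 2.81 in 2014, and over both days differed by -1.84 ± 0.29 (SE, limma adjusted p 1.13e-07). VIT_13s0019g03170 read 52.5, 56.4 and 69.0 on day 28 of 2013 and 16.6, 19.1 and 21.3 in 2014, a difference of -1.12 ± 0.14 over both days (SE, limma adjusted p 5.63e-11). VIT_17s0000g07190 read 17.8, 20.4 and 26.1 on day 28 of 2013 and 5.26, 8.68 and 10.3 in 2014. VIT_01s0127g00560 differed by -1.01, and that call was lost after quantile normalization and without replicate 1 or 3 of every group. Called or not, the difference was below 0 in 70.7% of members and 50.5% of all gene models, with medians of -0.05 and 0.00.

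The late change itself differed between 2014 and 2013 in 4 members, all less positive or more negative in 2014. Of all gene models 1.14% were called in that direction and 1.59% in either. The 4 members were VIT_00s2814g00010, VIT_13s0019g03170, VIT_18s0001g12110 and VIT_17s0000g07190. In VIT_13s0019g03170 the rise came later in 2014, since it read 92.9, 100 and 136 RPKM on day 42 of 2014. Calls on 3 of the 4 were lost when 1 replicate number was left out, VIT_13s0019g03170 being the exception, and without replicate 2 of every group 2 members were called.

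Thinning was compared as 75% minus 50% on matched days. The choice of members used the mean of both levels and not their difference. Libraries of the green days, and of other days that entered either step, were nevertheless used for both. A difference is unrelated to such a choice only where both levels vary equally, which was not tested. On day -18 of 2012 the SD of the member mean was 0.246 at 50% and 0.158 at 75% (n = 3 each). On the green days 13 members were higher at 75% thinning and 0 lower at an adjusted p below 0.05. Of all gene models 0.611% were higher and 0.953% lower. The median difference over members was 0.11 and over all gene models 0.02. It was positive in 130 members (86.7%) and in 59.4% of all gene models. The count depended on which replicate number was left out of every group. It was 0 without replicate 1, 32 without replicate 2 and 2 without replicate 3, where 0.0831%, 2.64% and 0.0391% of all gene models were higher. It was 39 without replicates 1 and 2 of 50% thinning on day -18 of 2012, against 2.42% higher among all, and 0 with 0.1 added in place of 1, against 0.0587%.

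Single green days, compared after the data were seen, went in different directions. On day -28 of 2012 the member mean was 3.88, 3.95 and 3.88 at 50% thinning and 4.56, 4.52 and 4.56 at 75%, with no overlap. There 77 members were higher and 7 lower at 75%, against 12.6% of all gene models higher and 8.39% lower. On day -18 of 2012 the member mean was 4.24, 4.42 and 3.93 at 50% and 3.94, 3.63 and 3.74 at 75%. There 52 members were lower and 3 higher, against 7.82% lower and 8.75% higher among all. Of the members, 44 were higher on day -28 and lower on day -18. The share of all gene models with both calls is not given, so this count has no background. Without replicates 1 and 2 of 50% thinning on day -18 only 4 members were called that day, 2 in each direction, and without replicate 1 of every group 32 were, against 0.621% and 3.54% of all gene models in either direction. On day -14 of 2013 8 members were higher and 0 lower, against 0.782% of all gene models higher and 2.5% in either direction. The count in either direction was 1 without replicate 1 of every group, 22 without replicate 2 and 0 without replicate 3. Of all gene models, 0.797%, 5.32% and 0.269% were then called in either direction. On day -14 of 2014 0 members were called by limma, against 0.108% of all gene models, and 3.33% of members (5) and 2.15% of all gene models had an unadjusted p below 0.05.

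VIT_10s0003g01960 had the smallest adjusted p of the 5 members named for thinning on green days. At 50% thinning it read 6.39, 6.79 and 6.48 RPKM on day -28 of 2012, and at 75% it read 10.2, 9.43 and 9.86. On day -14 of 2013 it read 8.87, 8.52 and 7.66 against 13.4, 11.1 and 13.4, and on day -14 of 2014 5.68, 6.79 and 6.40 against 8.00, 7.06 and 9.01. The levels did not overlap on these 3 days but did on day -18 of 2012. By single days it was called on day -28 of 2012 and day -14 of 2013 and not on day -14 of 2014, and the difference over green days was 0.38 ± 0.07 (SE, limma adjusted p 7.91e-05). VIT_05s0062g01260 differed by 0.58 ± 0.13 (SE, limma adjusted p 0.00385), from 9.05, 6.73 and 8.13 RPKM at 50% and 32.8, 37.3 and 43.9 at 75% on day -28 of 2012, while on day -18 it read 20.7, 47.5 and 8.67 against 15.8, 8.11 and 4.93. VIT_11s0016g00290 differed by 0.36 ± 0.08 (SE, limma adjusted p 0.00272), VIT_08s0058g01010 by 0.38 and VIT_15s0048g02910 by 0.35. All 5 calls were lost without replicate 1 of every group and with 0.1 added in place of 1.

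From day -9 on, few members were called for thinning. On days -9 to 0, 0 members were called by limma, against 0.0391% of all gene models, and 4% of members (6) and 4.46% of all gene models had an unadjusted p below 0.05. On days 7 to 14, 1 member was called against 1.38%, VIT_08s0058g00470, higher at 75% by 0.48 ± 0.12 (SE, limma adjusted p 0.0217), and the count was 0 without replicate 1 of every group, 2 without replicate 2 and 3 without replicate 3. From day 21 to harvest 3 members were lower at 75% and 0 higher, against 3.96% of all gene models lower and 5.04% in either direction. These members were VIT_03s0017g01210 at -0.43 ± 0.08 (SE, limma adjusted p 6.42e-05), VIT_01s0011g03360 at -0.30 and VIT_14s0083g00110 at -0.21, and without replicate 1 the count was 1. The drop itself, days -9 to 0 minus the green days, differed at 75% by a more negative value in 5 members and a more positive one in 0. Of all gene models 0.288% were more negative and 0.425% were called in either direction. The count of members was 0 without replicate 1 or 3 of every group, 15 without replicate 2, and 23 without the pair of day -18 libraries at 50% thinning, where 0.0391%, 0.127%, 1.64% and 2.6% of all gene models were called in either direction.

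By their identifiers, in which the digits after the prefix give the chromosome and 00 unplaced sequence, members were spread over all 20 numbers. Chromosome 18 held 15 members, which is 10% of members against 7.6% of gene models tested. Chromosome 16 held 10, which is 6.67% against 3.92%. There were 12 pairs whose numbers lay within 100 of each other on the same stretch, involving 24 members. Across the 55 group means, the levels of such a pair correlated with r of 0.67 to 1.00 and a median of 0.956, all pairs sharing the drop for which they were chosen. The pair VIT_13s0019g02930 and VIT_13s0019g03000 had r of 0.995. Neighbours may be near-identical copies whose reads were divided between them, so their single values are uncertain. VIT_00s0181g00180 and VIT_00s0181g00200, with r of 0.997, were both low in green berries of 2014, at medians of 0.303 and 0.122 RPKM on day -14, against 5.79 and 4.77 on day -14 of 2013.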

How the data were processed

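The authors deposited RPKM for 29971 gene models in 165 libraries. TopHat2 2.0.6 and Cufflinks 2.0.2 are named in the submitters' processing notes; the genome build was not given in the sources used here. Per the labels, libraries were non-directional TruSeq from 2.5 micrograms of RNA, so a gene and an overlapping antisense gene cannot be told apart. From the deposited RPKM, log2(RPKM + 1) was computed, which understates changes of low gene models. limma 3.58.1 in R 4.3.3 fitted 1 mean to each of 55 groups with an intensity trend, with Benjamini-Hochberg adjustment over 20460 gene models. Calls needed an adjusted p below 0.05 and, except for thinning, an absolute log2 change of at least 1. Seasons were weighted equally. The members, comparisons and lists were chosen with earlier results of these data known.

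Named were the 12 members with the most negative first step, the 6 most abundant in green berries, those at the limits of the rule, and up to 5 called members in each direction of a comparison. Gene lists and cell type markers defined by product names could not be applied, since no identifier was annotated. Day 34 of 2012 at 75% thinning, day 42 of 2012 at 50% and day 38 of 2014 at 75% had no counterpart at the other thinning level and entered no comparison.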

Additional observations from a re-analysis of the deposited data

Results flagged for a closer look

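In 4 members the late change, days 28 and 35 minus days 7 and 14, differed between 2014 and 2013 by a test of the difference itself in limma. The difference was -1.96 ± 0.42 in VIT_00s2814g00010 (SE, adjusted p 0.000147), -1.41 ± 0.20 in VIT_13s0019g03170 (SE, adjusted p 3.43e-08), -1.02 ± 0.34 in VIT_18s0001g12110 (SE, adjusted p 0.0204) and -1.01 ± 0.23 in VIT_17s0000g07190 (SE, adjusted p 0.00044). VIT_00s2814g00010 was listed at 0 in 3 of 6 libraries on day 35 of 2014.

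In 5 members the drop before veraison differed between thinning levels, again by a test of the difference in limma, and was deeper at 75%. The difference was -0.72 ± 0.17 in VIT_05s0062g01260 (SE, adjusted p 0.0166), -0.44 ± 0.11 in VIT_15s0048g02910 (SE, adjusted p 0.0471), -0.43 ± 0.10 in VIT_11s0016g00290 (SE, adjusted p 0.0167), -0.40 ± 0.09 in VIT_10s0003g01960 (SE, adjusted p 0.00997) and -0.32 ± 0.07 in VIT_12s0028g01350 (SE, adjusted p 0.0148). All 5 calls were lost without replicate 1 of every group.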

How the results depend on the processing

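Of 162 counts of members under alternative settings, 115 stayed within 1.5 times the reported count and 47 moved. Of 37 calls on single members, 18 held under all 8 alternatives, and no called value changed sign. With 0.1 added to the RPKM in place of 1, the members called were 25 for the late change, 8 for its season difference, 7 for day 14 against day 7, 17 and 12 for the season on day 7 and on days 28 and 35, 0 for thinning on green days, 2 on days 7 to 14, 7 from day 21 and 0 for the thinning difference of the drop. On single days they were 51 and 29 for thinning on days -28 and -18 of 2012 and 0 on day -14 of 2013. Of all gene models, 15.8% were called for the late change with 0.1 added, against 7.96% with 1 added. For thinning on green days and its difference of the drop the shares of all were 0.924% and 0.176%. They were 12.6% for day -18 of 2012 and 2.12% for day -14 of 2013. The other counts with 0.1 added have no such share beside them, so they cannot be read as particular to the members. With an adjusted p alone and no minimum change, the counts were 84, 23, 39, 27 and 40 for the late change, its season difference, day 14 against day 7, and the season on day 7 and on days 28 and 35. These are 56%, 15.3%, 26%, 18% and 26.7% of members, against 79.5%, 25.9%, 42.1%, 23% and 34.7% of all gene models. Quantile normalization gave 2 members for thinning on days 7 to 14 and 3 for the thinning difference of the drop, again without a share of all gene models. It moved the median first step of all gene models from -0.15 to 0.01 and that of the members from -1.83 to -1.60, with all 150 still negative.

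Leaving out 1 replicate number at a time gave 2 to 5 members for the season difference of the late change, 0 to 1 for day 14 against day 7, 0 to 32 for thinning on green days, 0 to 3 on days 7 to 14, 1 to 3 from day 21 and 0 to 15 for the drop. For single days it gave 32 to 65 on day -18 of 2012, 0 to 22 on day -14 of 2013 and 0 to 1 on day -14 of 2014. Of all gene models, it gave 0.259% to 3.65% for green days and 0.0391% to 1.64% for the drop. It gave 3.54% to 25.5% of all on day -18 of 2012 and 0.269% to 5.32% on day -14 of 2013. Without replicates 1 and 2 of 50% thinning on day -18 of 2012 the counts were 39 for green days, 1 for days -9 to 0, 2 for days 7 to 14, 23 for the drop and 4 for day -18. Without day 14 of 2014 thinning on days 7 to 14 gave 0. The 2014 test of gene models chosen in the other seasons gave 14 with day -6 alone, with no share of all gene models beside it. Of the 150 members, 52 were chosen again with 0.1 added, 103 after quantile normalization, 90 from 2012 and 2013 alone and 85 without day 0 of 2014, and 23 were members under all 13 alternative choices. With a replicate block the count for thinning on days 7 to 14 was 2, and no other count moved by over 1.5 times. Residuals of same-numbered libraries had median correlations of 0.010, -0.003 and -0.006 in 2012, 2013 and 2014, and single pairs ran from -0.388 to 0.660, so the numbers were not taken as pairs. Not every library correlated best with its own number, but 79 of 165 (47.9%) did, of 3 numbers to choose from, a hint from the data and not from the design. The depth is unknown, so levels below 1 RPKM have no stated counting error. The cause of these shifts was not tested.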
